A study of Mus musculus with 3 samples.

Results

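Setd1a peaks that lie at the start of a noncoding transcript and at no protein-coding promoter made up 478 of the 6911 autosomal peaks (6.92%, 95% Wilson interval 6.34 to 7.54) in a deposited list of 6969. A peak was placed in this class when a transcription start site (TSS) of any GENCODE M21 transcript lay within 3000 bp of its nearer edge and no TSS of a transcript typed as protein_coding did. Of the remaining autosomal peaks, 4386 had a coding TSS within that distance and 2047 had no annotated TSS at all. The noncoding-only peaks were therefore 18.9% (17.5 to 20.5) of the 2525 peaks away from coding TSSs. They covered 245.885 kb, belonged to 461 distinct genes, and numbered between 10 and 47 on each autosome.

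Setd1a binding was mapped by CUT & RUN, in which an antibody directs a nuclease to cut and release the DNA around its target in unfixed nuclei. The cells, which the labels call neural progenitor cells, were wild-type neural stem cells (NSCs) grown from the dentate gyrus of Hopx-CreERT2::Setd1afl/fl::H2B-GFP mice aged 7 to 8 weeks, so all 3 libraries came from animals with floxed Setd1a alleles and an inducible Cre driven from the Hopx locus. The paper calls these cultures wild-type. In its design, lentivirus with Cre-GFP or GFP alone was added before day 5. Whether these cultures received the GFP virus is not stated. Quiescence was induced by BMP4 together with FGF2, each at 20 ng/ml, in the absence of EGF, and the cells were taken at day 5 for 2 Setd1a libraries, each from a culture of its own, plus 1 library made with IgG. The deposited table joined both Setd1a libraries into a single list of start and end positions on mm10, with no height, score, depth or per-library value, so no spread between replicates could be computed and every interval below covers counting over peaks or genes only. Peak positions carry no expression, and the labelled cell type was not checked here against markers.

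Setd1a is the catalytic subunit of a COMPASS complex that methylates lysine 4 of histone H3, and trimethylation of that residue marks the start of actively transcribed genes. Most mammalian promoters of broadly expressed genes lie in CpG islands, which COMPASS complexes recognise through a subunit that binds unmethylated CpG. Long noncoding RNAs and host genes of small RNAs are generally transcribed by RNA polymerase II, as coding genes are. Retained-intron and nonsense-mediated-decay transcripts are often processing products of a coding gene, so their annotated start need not be a promoter. Many distal enhancers also carry binding of promoter-type complexes, and an annotated noncoding start can sit at either kind of element.

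The sequence under 8 of these peaks is given first, because CpG content separated the noncoding-only peaks from both other classes. Most of the motifs searched separated them from coding peaks only, from peaks with no TSS only, or from neither. The 8 were picked from the named peaks, with preference for those that overlapped a TSS and held a searched motif. They therefore do not represent the class. Each is the 300 bp around the peak midpoint in mm10 (GRCm38), written 5′ to 3′ on the strand of the noncoding transcript, and capitals mark matches to a searched motif. Snhg12, Snhg15 and Snhg8 are host genes that carry small nucleolar RNAs in their introns, and their peaks lay on or beside the TSS. Gm24407 is annotated as a small nuclear RNA gene, and Gm37472 lies in the long noncoding gene Dleu2. The Zbtb20 window surrounds the start of a retained-intron transcript of that coding gene. Mir99ahg, the host of miR-99a, and Gm25009, a small nucleolar RNA gene, are shown as the CpG-poor contrast.
Snhg12 (chr4:132308862-132309161, plus strand): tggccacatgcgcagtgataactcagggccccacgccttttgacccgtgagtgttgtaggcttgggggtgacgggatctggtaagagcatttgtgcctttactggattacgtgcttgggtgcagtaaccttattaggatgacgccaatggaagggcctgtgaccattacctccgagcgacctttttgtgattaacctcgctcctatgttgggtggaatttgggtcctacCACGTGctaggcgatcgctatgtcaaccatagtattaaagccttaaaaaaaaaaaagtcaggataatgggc
Snhg15 (chr11:6528497-6528796, minus strand): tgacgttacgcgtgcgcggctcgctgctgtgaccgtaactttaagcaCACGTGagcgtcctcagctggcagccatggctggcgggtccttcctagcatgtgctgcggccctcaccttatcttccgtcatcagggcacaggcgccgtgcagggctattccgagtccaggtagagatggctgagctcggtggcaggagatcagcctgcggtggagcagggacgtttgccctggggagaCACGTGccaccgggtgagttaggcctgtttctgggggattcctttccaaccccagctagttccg
Snhg8 (chr3:123508634-123508933, minus strand): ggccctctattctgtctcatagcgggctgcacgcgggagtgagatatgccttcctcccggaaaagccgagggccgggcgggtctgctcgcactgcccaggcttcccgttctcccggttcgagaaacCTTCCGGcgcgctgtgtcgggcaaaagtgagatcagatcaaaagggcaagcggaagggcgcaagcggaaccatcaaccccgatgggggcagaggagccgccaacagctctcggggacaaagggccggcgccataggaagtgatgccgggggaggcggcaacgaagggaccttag
Gm24407 (chr5:115489927-115490226, plus strand): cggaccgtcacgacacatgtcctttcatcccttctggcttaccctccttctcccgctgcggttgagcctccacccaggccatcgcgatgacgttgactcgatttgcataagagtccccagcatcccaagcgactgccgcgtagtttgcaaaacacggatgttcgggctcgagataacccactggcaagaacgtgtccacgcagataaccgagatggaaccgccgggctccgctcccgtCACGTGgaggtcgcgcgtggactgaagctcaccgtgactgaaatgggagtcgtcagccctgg
Zbtb20 (chr16:42875815-42876114, plus strand): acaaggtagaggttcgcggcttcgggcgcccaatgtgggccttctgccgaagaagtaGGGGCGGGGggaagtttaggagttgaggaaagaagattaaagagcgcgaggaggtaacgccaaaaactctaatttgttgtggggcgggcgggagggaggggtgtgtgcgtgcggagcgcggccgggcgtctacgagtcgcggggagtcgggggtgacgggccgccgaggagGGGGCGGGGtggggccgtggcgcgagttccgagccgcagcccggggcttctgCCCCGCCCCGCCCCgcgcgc
Gm37472 (chr14:61681394-61681693, minus strand): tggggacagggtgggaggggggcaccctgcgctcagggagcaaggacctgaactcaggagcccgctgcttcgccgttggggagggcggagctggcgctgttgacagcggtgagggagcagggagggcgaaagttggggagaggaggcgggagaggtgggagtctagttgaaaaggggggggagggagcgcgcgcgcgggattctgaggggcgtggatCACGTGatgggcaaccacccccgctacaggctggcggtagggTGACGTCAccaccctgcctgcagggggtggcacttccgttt
Mir99ahg (chr16:77237036-77237335, plus strand): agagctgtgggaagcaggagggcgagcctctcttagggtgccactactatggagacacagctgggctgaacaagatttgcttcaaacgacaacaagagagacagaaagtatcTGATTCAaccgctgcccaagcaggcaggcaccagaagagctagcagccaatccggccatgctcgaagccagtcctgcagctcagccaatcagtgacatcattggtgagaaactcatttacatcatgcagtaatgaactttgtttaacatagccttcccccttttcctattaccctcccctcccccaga
Gm25009 (chr3:103392956-103393255, plus strand): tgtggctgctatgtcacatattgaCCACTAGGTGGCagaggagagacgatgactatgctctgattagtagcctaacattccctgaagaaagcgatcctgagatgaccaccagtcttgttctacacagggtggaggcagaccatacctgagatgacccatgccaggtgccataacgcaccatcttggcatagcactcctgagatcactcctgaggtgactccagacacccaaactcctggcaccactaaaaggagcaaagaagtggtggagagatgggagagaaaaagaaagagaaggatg

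In these windows the capitals of Snhg12 and Gm24407 mark 1 E-box each (CACGTG), and those of Snhg15 mark 2. The Gm37472 window held an E-box and a CREB site (TGACGTCA), and Snhg8 held an ETS site (CTTCCGG, the reverse complement of CCGGAAG). The Zbtb20 window held 4 GC boxes (GGGGCGGGG or its reverse complement CCCCGCCCC), the last 2 of which overlapped. The ratio of observed to expected CpG was 1.12 there, 1.06 at Gm24407, 0.86 at Snhg8, 0.73 at Snhg15, 0.67 at Snhg12 and 0.66 at Gm37472. By contrast it was 0.26 in the Mir99ahg window, whose capitals mark an AP-1 site (TGANTCA), and 0.16 in the Gm25009 window, whose capitals mark the CTCF core. Over all 478 noncoding-only peaks the median ratio was 0.27, and 9.0% held an E-box and 4.60% a GC box.

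Long noncoding genes were the most frequent kind of transcript at these peaks. Each peak was assigned to the noncoding TSS nearest to it, which belonged to a long noncoding gene for 207 peaks (43.3%, 38.9 to 47.8) and to a noncoding transcript of a protein-coding gene for 150 (31.4%, 27.4 to 35.7). GENCODE's basic set keeps only part of the annotated transcripts. With it no peak was assigned to the latter kind (0%) and long noncoding genes took 60.9%. The list of peaks was unchanged, so these shares differ by the transcripts counted. Pseudogenes took 57 peaks (11.9%), small RNA genes 40 (8.37%), and genes annotated as TEC, GENCODE's class of unverified transcribed regions, 23 (4.81%). The remaining peak lay 175 bp from Trdv1, a variable segment of the T cell receptor delta chain. Among the long noncoding genes, 130 peaks were at lincRNAs, 47 at antisense genes, 22 at processed transcripts and 7 at sense-intronic genes. The transcripts of coding genes were 71 retained introns, 68 processed transcripts and 11 transcripts subject to nonsense-mediated decay. Of the small RNA genes, 17 were miRNAs, 8 snRNAs, 6 misc_RNAs, 5 snoRNAs and 4 ribosomal RNAs.

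By definition nearly all peaks at noncoding transcripts of coding genes (141 of 150 midpoints) fell inside the span of a coding gene. At long noncoding genes 53 of 207 (25.6%, 20.1 to 32.0) did, and the median distance to the nearest coding TSS was 33371 bp. Over all 478 peaks the midpoint lay in an intron of a coding gene for 169 (35.4%), between genes for 132 (27.6%), in an exon of a noncoding transcript for 87 (18.2%), in an intron of a noncoding gene for 59 (12.3%) and in an exon of a coding transcript for 31 (6.49%). The share inside a coding gene was 48.7% (44.3 to 53.2), against 46.6% (44.5 to 48.8) of the peaks with no TSS, a difference that two-sided Fisher's exact test did not call (adjusted exact p = 0.488). This share depended on the class of noncoding transcripts inside coding genes. When every TSS of a protein-coding gene was counted as coding, 310 noncoding-only peaks were left and the difference turned to -21.8 percentage points (24.8% against 46.6%).

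The distance to the noncoding TSS was limited to 3000 bp by the rule, and is given as a description. In 117 of 478 (24.5%, 20.8 to 28.5) the peak overlapped the TSS itself, a share that was 39.5% with a limit of 1000 bp and 18.7% with 5000 bp, and 289 (60.5%, 56.0 to 64.7) lay within 1000 bp of it. The number fell from 103 peaks at 1 to 500 bp to 69 at 501 to 1000 bp and 66 at 1001 to 1500 bp, and the 3 outer bins held 42, 36 and 45. Of the peaks that did not overlap, 172 lay upstream and 189 downstream of the TSS (47.6% upstream, 42.5 to 52.8), an interval that includes an even split. Pseudogene and small RNA peaks overlapped their TSS in 10 of 57 and 7 of 40 cases, and long noncoding peaks in 61 of 207 (29.5%, 23.7 to 36.0). For comparison, 3032 of the 4386 peaks near coding TSSs (69.1%) overlapped one.

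**Figure D1:**
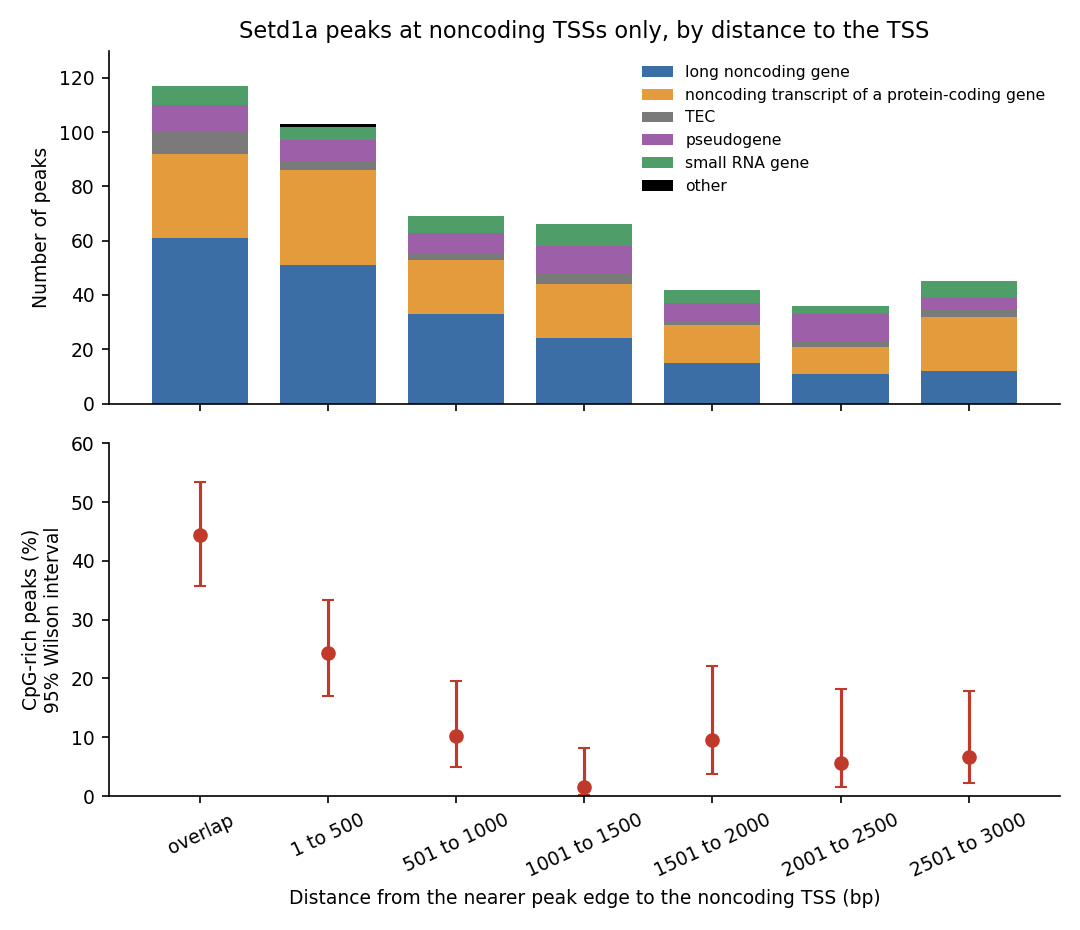
Upper panel, number of noncoding-only Setd1a peaks by distance in bp from the nearer peak edge to the noncoding TSS, with bars stacked by kind of transcript. Lower panel, percent of the peaks in each bin that were CpG-rich, with 95% Wilson intervals, which fell from 44.4% at overlapping peaks to between 1.52 and 9.52% in the 4 bins beyond 1000 bp.

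CpG content followed the same distance. A window was called CpG-rich when at least 50% of its 300 bases were G or C and its observed over expected CpG ratio was at least 0.6. Of the overlapping peaks 52 of 117 (44.4%, 35.8 to 53.5) were CpG-rich, of those 1 to 1000 bp away 32 of 172 (18.6%, 13.5 to 25.1), and of those farther out 10 of 189 (5.29%). The median CpG ratio was 0.55, 0.30 and 0.21 in the 3 groups and the median GC content 57.3, 51.3 and 49.3%. Overlapping peaks were also wider, with a median of 502 bp against 381 and 390 bp. Overlap was measured from the peak's own edges, so a wider peak covers a TSS more easily. The width difference is therefore a description only. By position, the CpG-rich share was 41.4% (31.6 to 51.9) for midpoints in an exon of a noncoding transcript and 7.10% (4.11 to 12.0) for those in an intron of a coding gene. By kind it was 39.1% at TEC genes, 26.1% at long noncoding genes, 15.0% at small RNA genes, 12.3% at pseudogenes and 12.0% at noncoding transcripts of coding genes.

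As a class, the noncoding-only peaks fell between the coding and the TSS-free peaks in CpG content. In all, 94 of 478 (19.7%, 16.4 to 23.5) were CpG-rich, against 78.3% (77.1 to 79.5) of peaks near coding TSSs and 3.37% (2.67 to 4.24) of peaks with no TSS. Both differences were called by two-sided Fisher's exact test on peaks, with p adjusted by the Benjamini-Hochberg method over the 27 comparisons made (adjusted exact p = 6.66e-143 and 3.56e-29). Peaks of a list are not replicate samples, and these p-values describe this list of peaks. Among only those peaks that overlapped a TSS, an alternative chosen after seeing the data, 44.4% of the noncoding-only and 87.6% of the coding peaks were CpG-rich (adjusted exact p = 4.31e-26). The median CpG ratio was 0.27 for noncoding-only, 0.82 for coding and 0.20 for TSS-free peaks, and the noncoding-only distribution was highest at 0.1 to 0.2 with a long shoulder above 0.6.

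**Figure D2:**
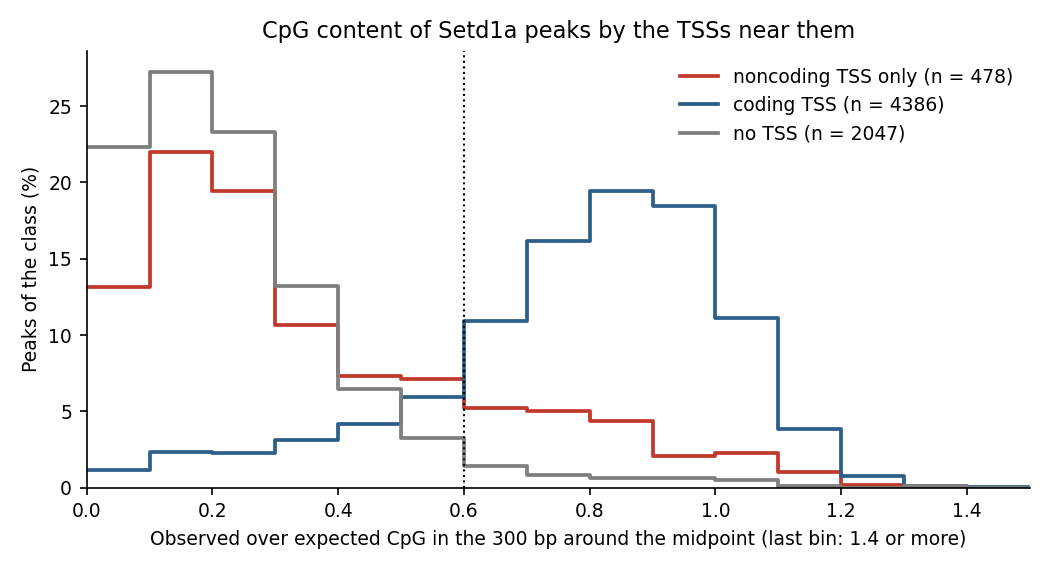
Percent of the peaks of each class in bins of the observed over expected CpG ratio of the 300 bp around the midpoint, for 478 noncoding-only, 4386 coding and 2047 TSS-free peaks, with a dotted line at 0.6. The coding class is centred near 0.8 to 1, and the noncoding-only class is highest at 0.1 to 0.2 with a shoulder that runs past 1.

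Width showed a smaller step. Noncoding-only peaks had a median width of 412.5 bp (233 to 5805), against 523 bp for coding and 382 bp for TSS-free peaks. Peaks of at least 500 bp made up 35.1% (31.0 to 39.5) of the noncoding-only, 52.9% (51.4 to 54.3) of the coding and 31.4% (29.4 to 33.4) of the TSS-free class, which separated the first from coding peaks (adjusted exact p = 1.1e-12) and not from TSS-free peaks (adjusted exact p = 0.163, Fisher's exact test). At a threshold of 1000 bp both calls changed: the difference from coding peaks was lost (7.11% against 9.99%, adjusted exact p = 0.0729) and that from TSS-free peaks was called (7.11% against 3.13%, adjusted exact p = 0.00053). The rule measures from the nearer edge, so a wider peak reaches a TSS more easily, and width is not independent of the class. With distances from the midpoint, 34.2% against 31.9% of TSS-free peaks were at least 500 bp wide (Fisher's exact test, adjusted exact p = 0.453).

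Motifs of CpG-island promoters were rarer, and the AP-1 site more frequent, at noncoding-only peaks than at coding TSSs. All 11 motifs were searched on both strands in the 300 bp around the midpoint, and in 31396 RefSeq promoters of the same length for reference. The ETS site CCGGAAG was in 3.77% of noncoding-only and 14.4% of coding peaks (adjusted exact p = 1.14e-12), and in 9.0% of RefSeq promoters. The GC box, the site of Sp-family factors, was in 4.60% against 17.01% (adjusted exact p = 1.92e-14), and in 11.6% of RefSeq promoters. NRF1 (GCATGCGC, 1.05% against 4.97%, adjusted exact p = 2.74e-05), YY1 (AAGATGGCG, 0.209% against 3.40%, 1.72e-05) and CREB (0.837% against 3.01%, 0.00781) were also lower. The CREB call was lost in 5 of the alternatives (adjusted exact p = 0.0522 to 0.215). RefSeq promoters held these 3 motifs in 2.70, 1.39 and 1.83% of cases. That reference pooled 20085 promoters of protein-coding genes with 11311 of long noncoding genes. Those of long noncoding genes held ETS, GC box, NRF1, YY1 and CREB in 3.91, 4.30, 1.18, 0.61 and 0.99% of cases. The corresponding shares of noncoding-only peaks were 3.77, 4.60, 1.05, 0.209 and 0.837%, and of protein-coding RefSeq promoters 11.9, 15.7, 3.55, 1.83 and 2.30%. Differences from RefSeq promoters were not tested.

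The AP-1 site, bound by Fos and Jun dimers, was in 10.5% (8.02 to 13.5) of noncoding-only and 3.85% of coding peaks (adjusted exact p = 3.2e-08), against 13.1% of TSS-free peaks (adjusted exact p = 0.17) and 7.84% of RefSeq promoters. It was in 5 of the 117 peaks that overlapped their TSS (4.27%, 1.84 to 9.62), 22 of 172 at 1 to 1000 bp (12.8%) and 23 of 189 beyond (12.2%). RefSeq promoters of long noncoding genes held an AP-1 site in 9.25% of cases, and those of protein-coding genes in 7.06%. Among only TSS-overlapping peaks the difference from the coding class was lost (4.27% against 3.0%, adjusted exact p = 0.607). The SOX site ACAATGG was in 3.35% of noncoding-only against 1.64% of coding peaks (adjusted exact p = 0.0374), 5.91% of TSS-free peaks and 3.61% of RefSeq promoters, and its call was also lost among overlapping peaks (adjusted exact p = 0.839).

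Against TSS-free peaks, 2 motifs were called and both were higher at the noncoding-only peaks. The GC box was in 4.60% against 1.17% (adjusted exact p = 2.27e-05), and the E-box CACGTG, bound by Myc, Usf and Bhlhe40-type factors, was in 9.0% (6.75 to 11.9) against 4.54% (adjusted exact p = 0.000732). The E-box share of coding peaks was 8.64%, and that of RefSeq promoters 7.14% (5.83% at long noncoding and 7.89% at protein-coding genes). Within the noncoding-only class the 94 CpG-rich peaks held an ETS site in 12.8%, a GC box in 18.1% and an E-box in 13.8% of cases, while the other 384 held them in 1.56, 1.30 and 7.81%. The AP-1 share ran the other way, at 4.26% against 12.0%. These shares inside the class were not tested. The TATA box TATAAAA, the NFI site (TTGGC and GCCAA 5 bases apart) and the CTCF core were called in neither comparison.

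**Figure D3:**
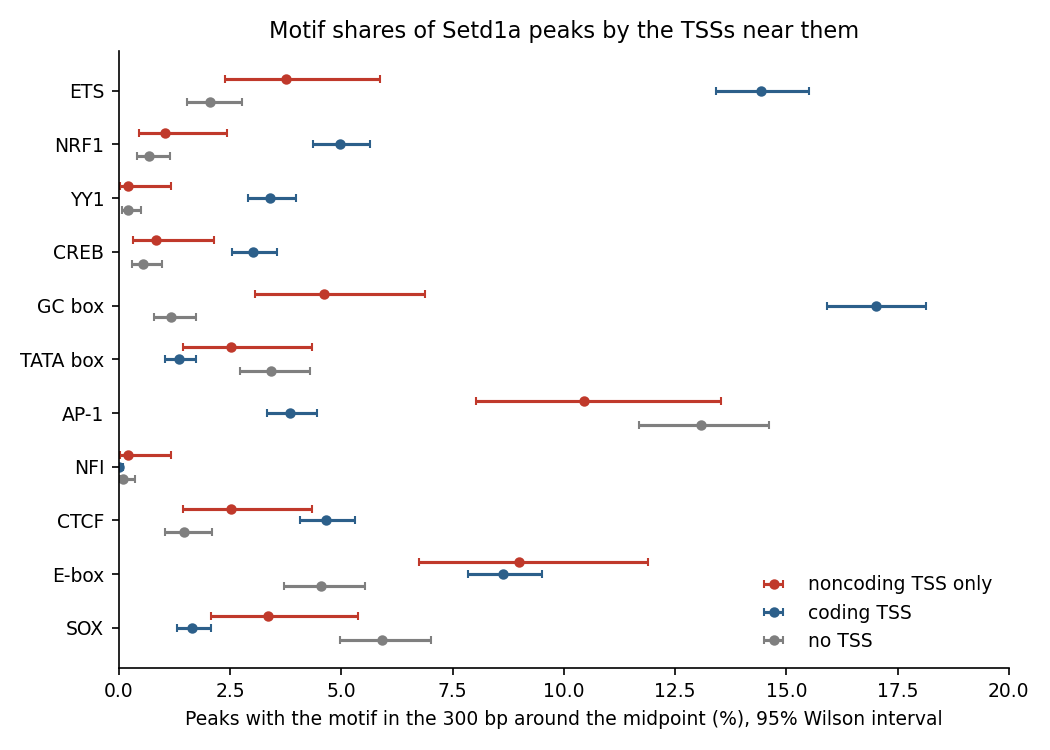
Percent of peaks with each of 11 motifs on either strand of the 300 bp around the midpoint, by class, with 95% Wilson intervals. ETS and GC box shares of the noncoding-only class (3.77 and 4.60%) lie far below those of the coding class (14.4 and 17.01%), and its AP-1 share (10.5%) lies above.

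Most annotated noncoding genes had no Setd1a peak. Of 26235 autosomal noncoding genes with no coding TSS within 3000 bp, 418 had a peak within that distance, which was a background of 1.59% (1.45 to 1.75). The share was 3.17% (2.79 to 3.60) for 7098 long noncoding genes, 1.55% (1.24 to 1.94) for 4893 small RNA genes, 1.13% (0.80 to 1.60) for 2746 TEC genes and 0.772% (0.625 to 0.953) for 11012 pseudogenes. A CpG-rich TSS went with a higher share in each of these kinds. For a gene with several TSSs the TSS nearest to a peak was used, so this grouping is not independent of the peaks. Of 350 long noncoding genes with a CpG-rich TSS 55 had a peak (15.7%, 12.3 to 19.9), against 2.52% (2.17 to 2.92) of those without. The corresponding pairs were 9.09 and 0.966% for TEC genes, 7.06 and 1.36% for small RNA genes, and 2.03 and 0.688% for pseudogenes. Over all kinds, 86 of 1266 genes with a CpG-rich TSS had a peak (6.79%, 5.53 to 8.31), against 1.33% (1.19 to 1.48) of 24969. Of the 418 genes with a peak, 380 had a noncoding-only one. The others were reached only by peaks with a coding TSS within 3000 bp.

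**Figure D4:**
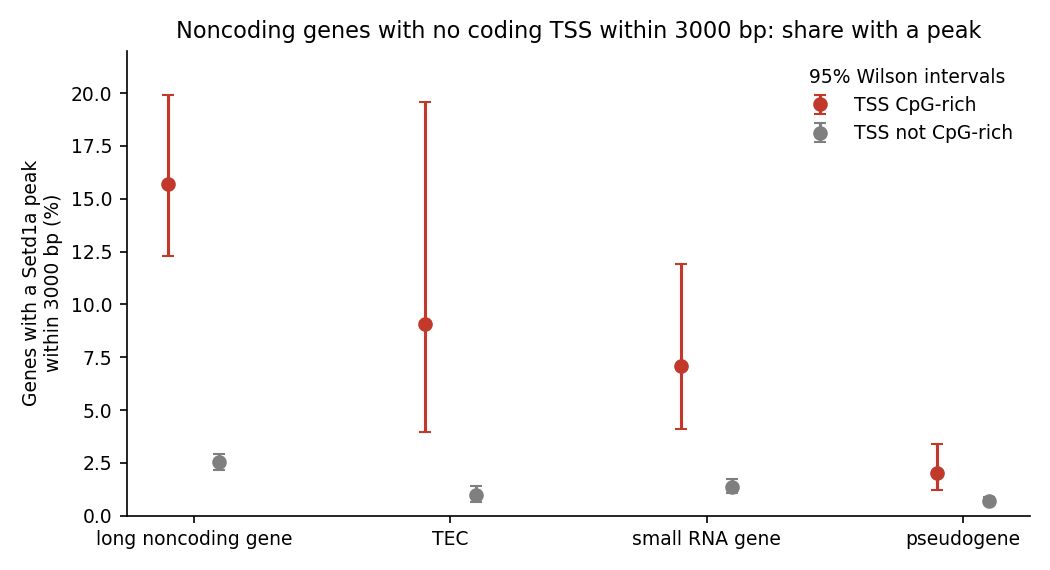
Percent of annotated noncoding genes, with no coding TSS within 3000 bp, that had a Setd1a peak within 3000 bp, by kind and by whether the 300 bp around the TSS were CpG-rich, with 95% Wilson intervals. For genes with several TSSs the TSS nearest to a peak was used. In all 4 kinds the CpG-rich genes lie higher, from 15.7% at long noncoding genes to 2.03% at pseudogenes.

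Long noncoding RNAs of a chosen list had peaks at a higher share than all long noncoding genes. Of 60 listed long noncoding RNAs 54 were annotated on the autosomes and 35 had no coding TSS nearby, of which 9 had a peak (25.7%, 14.2 to 42.1, beside 3.17% of all long noncoding genes). These were Malat1, Rmst, Lncpint, Peg13, Mir22hg, Mir9-3hg, Mir99ahg, Dleu2 and Neat1, and in 5 of them a peak overlapped the TSS. The list was chosen with earlier results of these data known, and the difference was not tested. CpG content was not matched: 15.7% of long noncoding genes with a CpG-rich TSS had a peak, a value inside the list's interval. A further 6 listed genes (Crnde, Gt(ROSA)26Sor, Hotairm1, Pantr1, Tug1 and Zfas1) had a peak but also a coding TSS within 3000 bp, and so fell outside the class. Host genes of small nucleolar RNAs had a peak in 4 of 9 eligible cases (44.4%, 18.9 to 73.3). By contrast 26 of 1677 eligible miRNA genes and host genes (1.55%, 1.06 to 2.26) and 53 of 3224 structural small RNA genes (1.64%, 1.26 to 2.14) had one, close to the 1.59% of all noncoding genes. A noncoding-only peak was among those reaching 24 of these 26 and 46 of these 53.

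Malat1, an abundant RNA of nuclear speckles, carried one of the widest peaks of the class. It spanned chr19:5802253-5803991, was 1739 bp wide, overlapped the TSS and was CpG-rich. Neat1, the scaffold RNA of paraspeckles, had no peak at its own TSS, and the nearest one, 303 bp wide at chr19:5848293-5848595, lay 2815 bp away over the TSS of the antisense gene Frmd8os. Rmst, a neural long noncoding RNA that partners with Sox2, had a 431 bp peak over its TSS at chr10:92162720-92163150 in a window of 39.7% GC, and its nearest coding TSS was 559270 bp away, that of Nedd1. Lncpint, a p53-responsive RNA, had a CpG-rich peak of 319 bp over its TSS (chr6:31218104-31218422). Peg13, an imprinted RNA gene inside Trappc9, had a CpG-rich peak of 263 bp over its TSS (chr15:72810079-72810341). The Dleu2 gene, host of a miR-15 and miR-16 cluster, was reached by the 847 bp peak of Gm37472, whose edge lay 336 bp from the Dleu2 TSS.

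The host genes of small nucleolar RNAs had their peaks on or next to the TSS. The peak at Snhg5 was 1169 bp wide and overlapped the TSS, as did those of 329 bp at Snhg12 and 289 bp at Snhg15, while the 658 bp peak at Snhg8 ended 51 bp upstream. The windows of Snhg5, Snhg15 and Snhg8 were CpG-rich, and that of Snhg12 missed the criterion by its GC content of 49.3%. Their nearest coding TSSs were 5462 bp (Rab42, from Snhg12) to 61542 bp (Prss12, from Snhg8) away.

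Among miRNA host genes, Mir22hg had a pair of peaks. The wider one, 2333 bp, overlapped the Mir22hg TSS and that of a noncoding Tlcd2 transcript and ended 76 bp before the Mir22 hairpin, and the other, 640 bp, ended 583 bp upstream of the Mir22hg TSS. Mir99ahg had a CpG-poor peak of 1288 bp that began 223 bp downstream of its TSS. Mir9-3hg had a peak of 263 bp that ended 103 bp upstream of the TSS, 5341 bp from the Mir9-3 hairpin. miR-9 is a miRNA of neural progenitors encoded at 3 loci, and after its values were seen the other loci were examined too. The Mir9-2 hairpin on chromosome 13 lay 6238 bp from a 488 bp peak over the TSS of C130071C03Rik, and Mir9-1 on chromosome 3 lay 5118 bp from the nearest of 5 peaks assigned to Gm3764, more than any other gene had. In all, 30 of 919 autosomal RefSeq hairpins (3.26%, 2.30 to 4.62) lay within 10000 bp of a noncoding-only peak. All 3 loci encode the same mature miRNA, shown from RefSeq with bases 2 to 8, the seed, in capitals.
mmu-miR-9-5p: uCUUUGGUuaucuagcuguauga

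None of the 5 Gm3764 peaks, which lay between 88220804 and 88232100 on chromosome 3, was CpG-rich, and they were 237 to 533 bp wide. In all, 14 genes had 2 or more noncoding-only peaks. Gm24407, an snRNA, had a CpG-rich peak of 715 bp over its TSS, the spliceosomal U1 gene Rnu1a1 had a peak of 869 bp that began 118 bp downstream, and Mir124a-3 had a CpG-rich peak of 238 bp at 85 bp. Gm27782, a misc_RNA gene within the Pvt1 locus, had a peak of 1106 bp at 262 bp from its TSS and 91456 bp from the coding TSS of Myc.

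**Figure D5:**
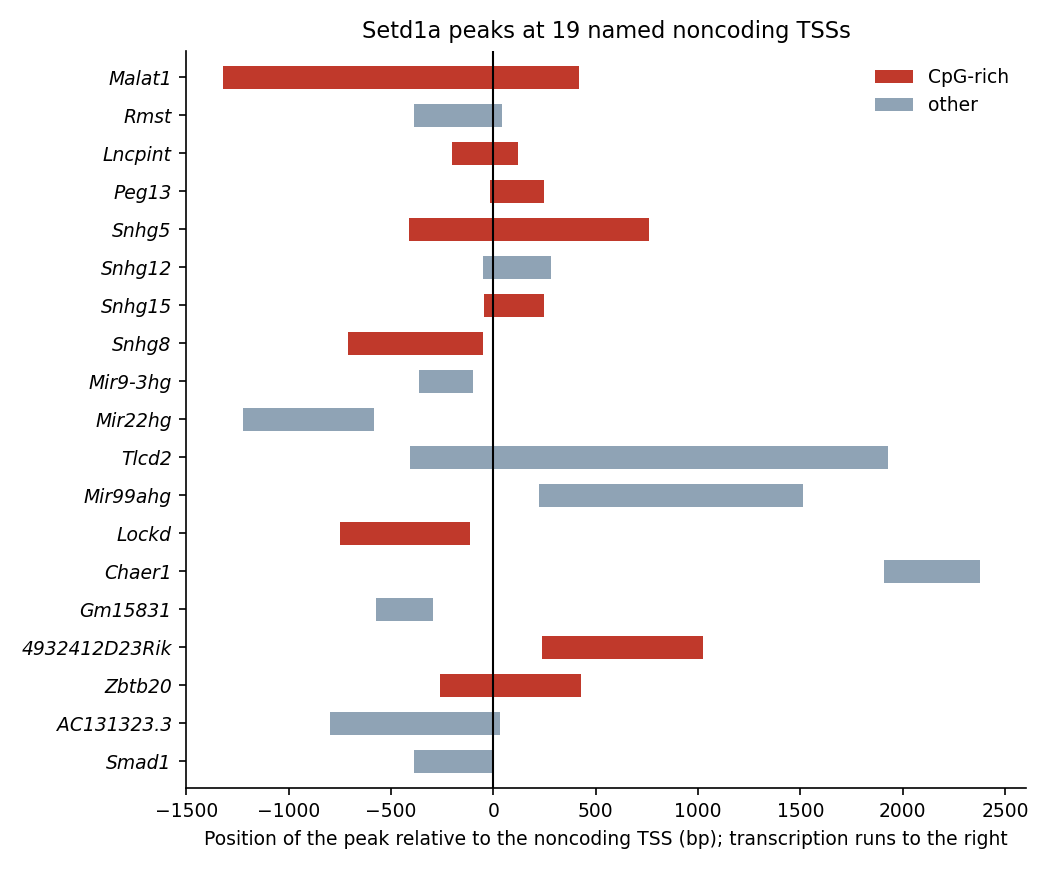
Extent of 19 named noncoding-only peaks in bp relative to the noncoding TSS they were assigned to, with transcription to the right and CpG-rich peaks in red. The Malat1, Rmst, Lncpint, Peg13, Snhg5, Snhg12, Snhg15, Zbtb20, AC131323.3, Tlcd2 and Smad1 peaks overlap the TSS, and the Chaer1 peak lies 1909 bp from it.

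Regulators of neural stem cells were the nearest coding genes of 10 noncoding-only peaks. A list of 78 such genes was used, of which 8 were the nearest coding neighbour of a peak (10.3%, 5.29 to 18.95), beside 452 of 20733 autosomal coding genes (2.18%). This difference was not tested, and the spacing of genes, which sets how often a gene is the nearest, was not matched. Zbtb20, a zinc-finger repressor of the hippocampus, had a pair of CpG-rich peaks about the TSS of a retained-intron transcript. One was the 691 bp peak over that TSS, 31336 bp from the nearest coding TSS of Zbtb20, with its midpoint inside the gene. The other was a 788 bp peak that ended 237 bp from the TSS of the lincRNA 4932412D23Rik on the opposite strand. Its midpoint lay upstream of the retained-intron transcript and outside the span of any coding gene. Hopx, a homeodomain protein that marks quiescent stem cells of the dentate gyrus, also had a pair, 277 bp wide at Gm15831 (7522 bp from the Hopx coding TSS) and 468 bp wide at Chaer1 (22755 bp away). Neither of these was CpG-rich. The mice carried the Hopx-CreERT2 knock-in at this locus, and whether it altered these peaks was not tested. Cdkn1b, the cell cycle inhibitor p27, had a CpG-rich peak of 637 bp that ended 115 bp upstream of the lincRNA Lockd, 7828 bp from the Cdkn1b coding TSS.

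Of the other listed neighbours, Smad1, which transmits the BMP signal, had a 389 bp peak at the edge of an internal noncoding transcript, 49081 bp from the coding TSS, while Id3, an inhibitor of basic helix-loop-helix factors, lay 3021 bp from a CpG-rich peak of 259 bp assigned to the snRNA gene Gm26001. That was the shortest distance to a coding TSS in the class. Sox8, a group E Sox factor, lay 8203 bp from an 829 bp peak over the TSS of the lincRNA AC131323.3. The peaks nearest to Tcf12 (520 bp, at Gm27159) and to the forebrain homeobox gene Emx2 (419 bp, at the pseudogene AC098733.1) were CpG-poor and lay 66503 and 82351 bp from the coding TSS.

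Across the class the nearest coding TSS was a median of 20727.5 bp away (3021 to 614981), against 35760 bp for TSS-free peaks, and 56 of 478 (11.7%) were more than 100 kb away, against 456 of 2047 (22.3%). The class limits fall in a continuous range of distances. The nearest peak left out for a coding TSS lay 2994 bp from it, the farthest noncoding TSS of a class member was 2992 bp away (at Tle2), and the nearest peak left out for lack of a TSS had one at 3002 bp. A random position also meets the rule often: 9.80% of autosomal bases outside the coding windows lay within 3000 bp of a noncoding TSS, against 468 of 2544 peak midpoints outside those windows (18.4%), a ratio of 1.88. Under a second annotation, 59 of the 478 peaks (12.3%) lay within 3000 bp of the start of a RefSeq mRNA, 20 of them (4.18%) of a curated one.

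The 3 widest peaks of each kind of transcript were examined. The widest of all, at the lincRNA Gm26917 (chr17:39842997-39848801), was 5805 bp, more than any coding or TSS-free peak (3140 and 2425 bp at most). It overlapped RefSeq's Rn18s-rs5, a sequence related to ribosomal RNA, a repeated sequence with near-identical copies, so its extent is uncertain although only unique alignments were kept. Among noncoding transcripts of coding genes, Tlcd2 was followed by Gse1 (1363 bp) and Pcsk7 (1352 bp). The widest at TEC genes were Gm7461 (1105 bp), Gm5112 (1024 bp) and Gm37472 (847 bp), all of which overlapped the TSS and were CpG-rich. The widest at pseudogenes, Gm18907 (1025 bp), Gm12571 (1015 bp) and Gm13444 (962 bp), lay 1757 to 2602 bp from the TSS and none was CpG-rich. At small RNA genes the widest were Gm26329 (1312 bp, over its TSS), Gm27782 and Gm24530 (978 bp), and at long noncoding genes Gm26682 (1894 bp) came between Gm26917 and Malat1.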

How the data were processed

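Setd1a CUT & RUN (2 libraries) and IgG CUT & RUN (1 library) were made from quiescent mouse NSC cultures. Per the labels and methods, the authors demultiplexed reads with bcl2fastq 2.17.1.14, trimmed them with Trimmomatic 0.32, kept unique alignments to mm10 from Bowtie2 2.1.0, removed those of low mapping quality with SAMtools 0.1.18, called peaks with MACS2 2.2.8 at its defaults and kept the intersection of both replicates' peaks. Whether IgG served as the control and what overlap was required are not given in the sources used here. The deposited list holds 1 set of peak positions and no height, so depth is unknown and a narrow or weak peak weighs as much as a strong one.

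Distances, widths, base composition and motifs were computed here on the 6911 autosomal peaks with GENCODE M21 and the GRCm38 sequence (python 3.11.15, numpy 2.4.6, pandas 2.3.3, scipy 1.17.1, pysam 0.24.0, samtools 1.23.1, matplotlib 3.10.9), and promoters and miRNAs were taken from RefSeq (GRCm38). Classes were compared by two-sided Fisher's exact test with Benjamini-Hochberg adjustment over 27 comparisons and a threshold of 0.05. The steps were tested on simulated data. Named peaks were those at listed genes, the 3 widest of each kind, and those nearest a listed neural stem cell gene. The class, lists and tests were chosen with earlier results of these data known. Alternatives were other windows, annotations, widths and motif windows.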

Additional observations from a re-analysis of the deposited data

How the results depend on the processing

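No paired analysis was possible because the deposited list joins both Setd1a libraries and holds no value for either, and for the same reason no replicate could be left out. The list has no depth or signal, so weak and strong peaks could not be separated. Of 208 values computed under alternatives, 180 counted as unchanged. For a tested difference this meant the same direction and call, for a count an approximate size, and for a share a value inside the reported interval. The size of a tested difference was not part of it, and that of ETS against coding peaks ran from -17.7 to -7.99 points. The difference in CpG-rich share kept its call in all of them, at -61.1 to -43.2 percentage points against coding peaks and 13.4 to 24.8 against TSS-free peaks. The definition of the class moved more. Counting all TSSs of protein-coding genes as coding left 310 peaks. With windows of 1000, 2000 and 5000 bp in place of 3000 bp, 39.5, 29.4 and 18.7% of the peaks overlapped their TSS, and 1.05, 1.41 and 2.03% of noncoding genes had a peak. With GENCODE basic transcripts, under which no peak was assigned to a noncoding transcript of a coding gene, long noncoding genes took 60.9%. The difference from TSS-free peaks in the share inside a coding gene turned to -18.7 points with basic transcripts and to -21.8 points with all TSSs of coding genes, and was 19.4 points for the span of any gene. The excess of wide peaks over TSS-free peaks was called at 8.53 points (1000 bp window), 6.38 points (basic transcripts) and 3.99 points (1000 bp as wide), and at 1000 bp the difference from coding peaks was -2.87 points and not called. With distances from the midpoint the excess at 500 bp was 2.30 points and not called. With the 1000 bp window 6 motifs, in place of 2, differed from TSS-free peaks. RefSeq mRNA starts counted as coding and the restriction to TSS-overlapping peaks were alternatives chosen after seeing the data. Beyond what each setting counts by its definition, the cause of these changes was not tested.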

Other observations

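Noncoding-only peaks outside the autosomes were 3, all on chromosome X, and entered none of the comparisons above. One, 622 bp wide, overlapped the TSS of Ftx, a long noncoding gene of the X-inactivation centre, 7948 bp from the nearest coding TSS. The others lay 2478 bp from the lincRNA Gm7598 (536 bp wide) and 378 bp from the processed pseudogene Gm14984 (394 bp wide).

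Transfer RNA genes, which RNA polymerase III transcribes, are not in the annotation that defined the class. On the chromosomes with RefSeq tRNAs, 7 of 468 noncoding-only peaks (1.5%) had a tRNA gene within 3000 bp, against 22 of 4261 coding peaks (0.516%) and 8 of 1981 TSS-free peaks (0.404%). This count was made after other values were seen, and the difference was not tested.

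The autosomal miRNA hairpins within 10000 bp of a noncoding-only peak, besides those of miR-9 and miR-22, included Mir760 (274 bp), Mir125a and Mirlet7e (7204 and 7639 bp from a peak in Spaca6), and Mirlet7a-1, Mirlet7f-1 and Mirlet7d, which lay 7825, 8180 and 9983 bp from a peak at 6720427I07Rik. These clusters were singled out after their distances were seen.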
